A study of Mus musculus with 6 samples.

Results

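Glutamate receptors and the scaffold proteins that hold them at the synapse were followed as 33 genes, taken by symbol from a table of 56859 genes. All 33 were found, and all 33 passed the filter on low counts that left 17599 genes for testing. They comprise 4 AMPA, 5 kainate and 7 NMDA receptor subunit genes, 1 delta receptor gene, 6 metabotropic receptor genes, and 4 Dlg, 3 Shank and 3 Homer scaffold genes. RNA was sequenced from spinal cord of wild-type (WT) mice collected 6 weeks after a contusion at thoracic level 10, with 3 samples in each of 2 groups. Mice of the injury + AZ876 group had been given the liver X receptor agonist AZ876 intraperitoneally at 5 mg/kg each day for 1 week after the contusion. Mice of the injury group had not, and according to the labels' protocols control animals were injected with the solvent, a mixture of DMSO, SBE-β-CD and saline. Both groups were injured, and no uninjured cord was analysed here. All 6 samples carry the same batch label. The labels do not state the animals' age, the length of cord taken or its distance from the lesion.

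Most fast excitation in the spinal cord is carried by glutamate. AMPA receptors give the fast current, NMDA receptors admit calcium when glutamate coincides with depolarisation, and kainate receptors tune excitability on both sides of the synapse. Metabotropic receptors act through G proteins. Under the postsynaptic membrane, Dlg proteins bind receptor tails, Shank proteins form the layer below, and Homer proteins tie Shank to metabotropic receptors and to calcium stores. Glia also carry some of these receptors.

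The libraries held 14067649 to 20211175 counts, and the 33 genes took 0.0867% to 0.200% of them. Neuron, astrocyte and oligodendrocyte markers were all detected, and 0 of the markers on these lists were at 0 in all libraries. On the first principal component of all tested genes, injury replicates 1, 2 and 3 scored −40.6, −52.3 and 6.31, and the AZ876 replicates, in the same order, −7.17, 44.2 and 49.5, so that injury replicate 3 and AZ876 replicate 1 were in the middle. The receptor and scaffold genes often showed the same order, so results are given with and without AZ876 replicate 1 where it matters. That choice was made after the values were seen. Of the AZ876 libraries, replicate 1 scored nearest the injury group, so leaving it out tends to widen a difference.

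Because these genes are discussed as a set, their promoters were examined for shared letters, and examples from Gria2, Dlg4 and Grin2c are shown. RefSeq windows of GRCm38.p6, from 250 bases before to 50 bases after a transcription start, were found for 22 of the 33 genes, 35 windows in all. The letters of the NRF1 motif, GCGCA, any base and GCGC, on either strand, stood in 2 of these windows, 1 of Gria2 and 1 of Dlg4, or 5.71% of them against 4.603% of the 32851 windows of all genes. The GC box, GGGCGG on either strand, stood in 17 windows of 15 of the genes, or 48.6% against 35.7% of all windows. The cyclic AMP response element, TGACGTCA on either strand, stood in 0 of the 35 windows and in 1.79% of all windows. The TATA box letters, TATAAA on either strand, stood in 4 windows, of Dlg1, Dlg2, Grin3b and Homer2, or 11.4% against 13.6% of all windows. The median GC content was 61.0% in the windows of the receptor and scaffold genes and 52.7% in all windows. These are matches of letters and not measured binding sites. The 200 bases before 1 start of Dlg4 (plus strand, chr11:70023782-70023981) and before the start of Grin2c (minus strand, chr11:115267244-115267443), and 30 bases around the Gria2 match (minus strand, chr3:80802811-80802840), read 5′ to 3′ as follows, with NRF1 and GC box letters in capitals. In Dlg4 the NRF1 letters begin 59 bases and the GC box 50 bases before the start, and they share 1 base. In Grin2c the GC boxes begin 50, 40 and 35 bases before it, and the last 2 share 1 base. The NRF1 letters of Gria2 begin 5 bases after the start and not before it.
Dlg4: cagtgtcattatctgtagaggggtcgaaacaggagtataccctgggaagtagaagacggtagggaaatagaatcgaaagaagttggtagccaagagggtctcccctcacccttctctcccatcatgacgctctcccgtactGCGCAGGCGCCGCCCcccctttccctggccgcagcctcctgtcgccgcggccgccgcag
Grin2c: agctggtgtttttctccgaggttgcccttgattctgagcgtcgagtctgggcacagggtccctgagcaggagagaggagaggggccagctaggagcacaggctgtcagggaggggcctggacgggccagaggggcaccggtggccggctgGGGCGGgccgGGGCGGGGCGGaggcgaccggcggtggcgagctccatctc
Gria2: gcctcgagtcGCGCACGCGCgcccgggact

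The first question was which receptors the injured cord expressed. Levels of different genes are compared as CPM (a gene's counts as a share of its library, scaled to a fixed total after TMM normalisation) divided by kilobases of exon. In the injury group Gria1 had the highest level per length, 21.1 ± 6.83 CPM per kb (SD, n = 3), followed by Grik5 at 21.0 ± 3.01, Gria4 at 15.5 ± 1.68, Dlg4 at 15.1 ± 2.89, Shank1 at 13.8 ± 3.50 and Grin1 at 11.2 ± 2.92 CPM per kb. Gria1 and Gria4 encode AMPA receptor pore subunits, Grik5 a kainate receptor subunit that needs a partner subunit, Grin1 the subunit common to all NMDA receptors, Dlg4 the most abundant Dlg protein of the postsynaptic density, and Shank1 a Shank scaffold. The ranges of Grik5 and Gria4 over the 3 injury libraries did not overlap, and those of the other neighbours in this order did. Within each of the 3 libraries Dlg4 was above Shank1 and Shank1 above Grin1. The lowest levels per length were those of Grm8 at 0.334 ± 0.113, Grm2 at 0.430 ± 0.196, Homer2 at 0.739 ± 0.130 and Grin2b at 0.848 ± 0.352 CPM per kb. The order depends on the length used. With the longest coding transcript in place of all exons the highest were Dlg4 (31.5 CPM per kb), Grik5 (28.9), Grin1 (25.5) and Gria1 (23.0), and the lowest were Grm2 (0.446), Homer2 (0.850), Grm8 (0.857) and Grin2b (0.876).

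**Figure D1:**
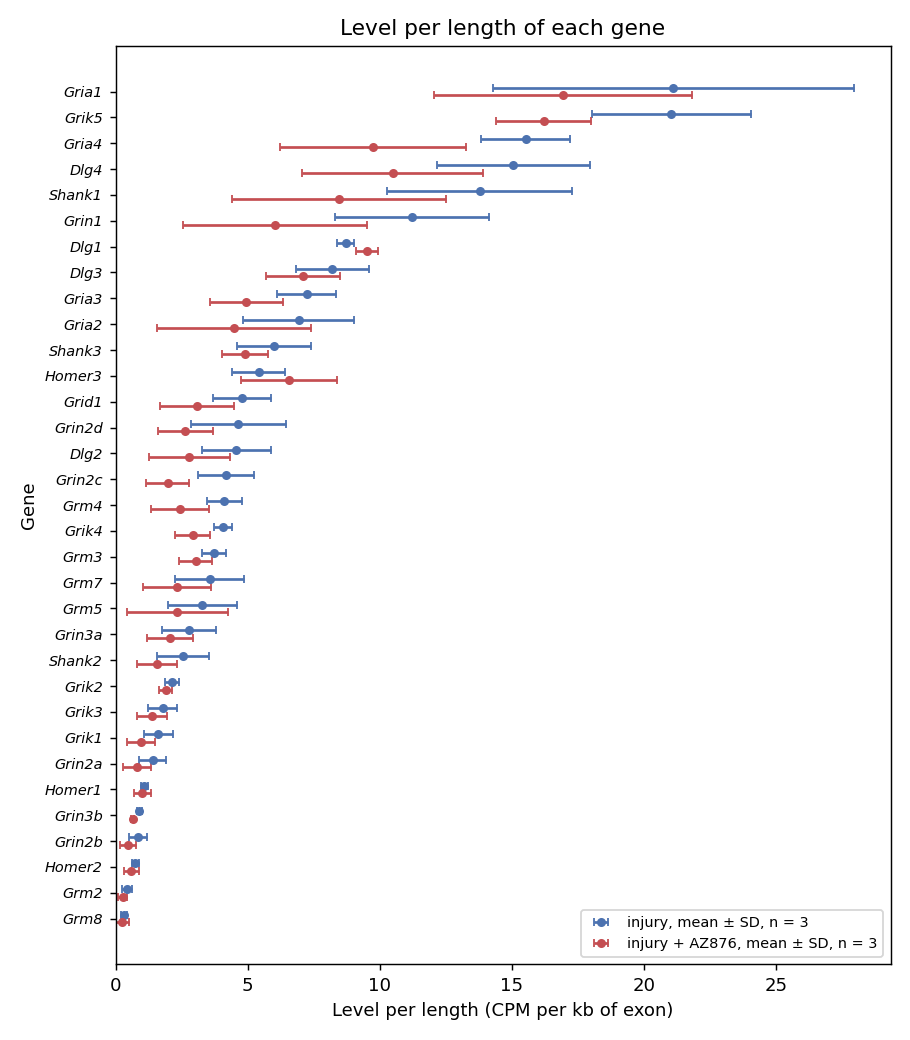
Level per length of the 33 genes in CPM per kb of exon, as the mean ± SD of 3 libraries in the injury group (blue) and the injury + AZ876 group (red), ordered by the injury mean. Gria1 and Grik5 are at the top at 21.1 and 21.0 CPM per kb with injury, and Grm8 at the bottom at 0.334.

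The study then compared injury + AZ876 with injury. Mean levels of nearly all receptor and scaffold genes were lower in the AZ876 group, but none passed the test over all genes. Of the 33 genes, 31 had a log2 fold change below 0, as did 49.5% of all genes tested, and the median was −0.52 against 0.00 for all genes. In the quasi-likelihood test of edgeR, with Benjamini-Hochberg adjustment over the 17599 genes, 0 of the 33 genes and 0.0% of all genes had an adjusted p under 0.05. The adjusted p of the 33 genes ran from 0.330 to 0.821. At an unadjusted p under 0.05, 8 of the 33 genes were lower and 0 higher, where 6.74% of all genes were lower and 7.98% higher. DESeq2 and limma-voom also called 0 of the 33 genes, although DESeq2 called 0.307% of all genes lower and 0.705% higher. The groups did not overlap in CPM for 7 genes on the lower side, where 8.64% of all genes did so, and for 1 on the higher side, where 10.2% did.

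The count at an unadjusted p under 0.05 changed with the library left out. How many of all genes reached that threshold with 1 library left out was not counted. Changes in the count therefore cannot be set against changes over all genes. The 8 genes became 24 without AZ876 replicate 1, 11 without injury replicate 3, 2 without injury replicate 2 or AZ876 replicate 2, and 1 without injury replicate 1 or AZ876 replicate 3. AZ876 replicates 2 and 3 were both below every injury library for 30 of the 33 genes, where 23.7% of all genes had that order. AZ876 replicate 1 was above injury replicate 3 for 24 of them, where 51.4% of all genes were. Injury replicate 1 held the highest value for 18 of the 33 genes and AZ876 replicate 3 the lowest for 26. For all genes these highest and lowest libraries were not counted. Since most of the 33 genes follow much the same order of libraries, they are not 33 separate observations. Without AZ876 replicate 1, edgeR called 4 of them lower at an adjusted p under 0.05, Gria4 and Grin1 (0.0444 each), Shank1 (0.0479) and Dlg2 (0.0499), where 1.64% of all genes were called lower and 0.351% higher.

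**Figure D2:**
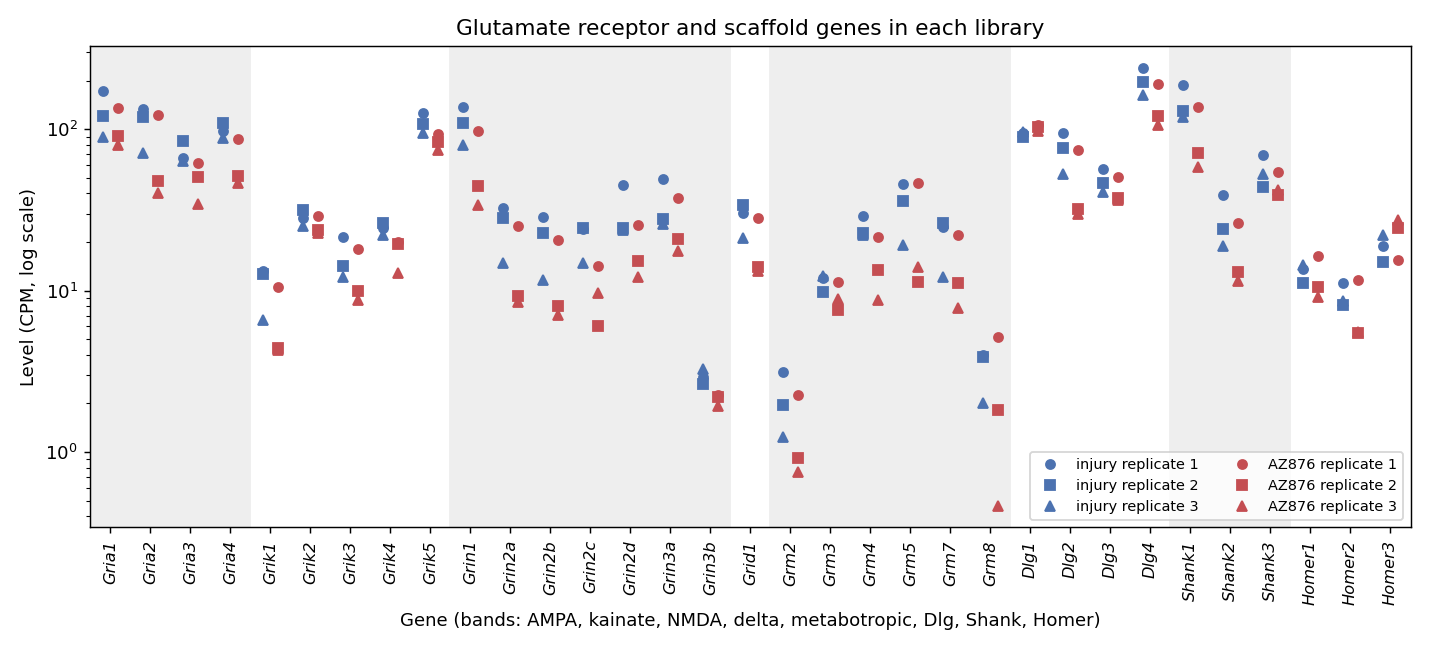
CPM (log axis) of the 33 genes in each of the 6 libraries, with injury in blue, AZ876 in red and 1 symbol for each replicate, in bands for the receptor and scaffold classes. For 30 genes AZ876 replicates 2 and 3 lie below all injury libraries, while AZ876 replicate 1 lies above injury replicate 3 for 24.

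AMPA receptor genes all had a mean below that of the injury group. Gria4, whose subunit has fast kinetics, was at 96.8, 109 and 87.9 CPM in injury replicates 1, 2 and 3 and at 87.1, 50.9 and 46.4 CPM in AZ876 replicates 1, 2 and 3. The groups did not overlap, but AZ876 replicate 1 was within 1 CPM of injury replicate 3. The log2 fold change of Gria4 was −0.67 ± 0.24 (SE; edgeR adjusted p of 0.330), or −1.01 without AZ876 replicate 1. Gria3, an X-linked subunit gene, was at 66.7, 84.0 and 63.3 CPM with injury and at 61.8, 50.4 and 34.4 CPM with AZ876. Its groups did not overlap either, by a margin smaller than the spread within each, with a log2 fold change of −0.55 ± 0.22 (edgeR adjusted p of 0.330). Gria1 was at 172, 121 and 89.9 CPM with injury and at 136, 91.1 and 80.2 CPM with AZ876. Its groups overlapped, and its log2 fold change of −0.32 ± 0.27 ranged from −0.58 to −0.05 when 1 library was left out. Gria2 encodes the subunit whose edited form blocks calcium entry, and its promoter match is shown above. It was at 134, 119 and 70.8 CPM with injury and at 122, 47.4 and 40.1 CPM with AZ876. AZ876 replicate 1 was above injury replicates 2 and 3, and the log2 fold change was −0.63 ± 0.43, or −1.30 without that library.

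In the kainate class, Grik5, the most abundant member, was at 125, 107 and 94.0 CPM with injury and at 93.2, 83.7 and 74.4 CPM with AZ876. All AZ876 libraries were below all injury libraries, though by under 1 CPM at the nearest, and the log2 fold change was −0.38 ± 0.14 (edgeR adjusted p of 0.330). Grik4 encodes the other subunit that needs a partner. It was at 24.4, 26.1 and 22.0 CPM with injury and at 20.0, 19.3 and 12.9 CPM with AZ876, again without overlap, and its log2 fold change was −0.48 ± 0.19 (edgeR adjusted p of 0.330). Grik1, Grik2 and Grik3 encode subunits that form channels by themselves. Their groups overlapped, with log2 fold changes of −0.76 ± 0.42, −0.17 ± 0.15 and −0.38 ± 0.33. Grik2 ranged from 24.97 to 31.6 CPM with injury and from 22.8 to 28.9 CPM with AZ876.

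NMDA receptor genes had the lowest median log2 fold change among the classes with more than 1 gene, −0.82 over 7 genes. Grin1 was at 137, 110 and 80.2 CPM with injury and at 97.1, 44.2 and 34.1 CPM with AZ876. AZ876 replicate 1 was among the injury libraries and the other AZ876 libraries were well below all of them. The log2 fold change of Grin1 was −0.90 ± 0.39 (edgeR adjusted p of 0.339), and it ran from −1.48 without AZ876 replicate 1 to −0.62 without AZ876 replicate 3. Grin2c, a regulatory subunit gene that is also active in astrocytes, had the largest difference of the 33 genes. It was at 24.0, 24.4 and 14.8 CPM with injury and at 14.2, 6.04 and 9.67 CPM with AZ876. The groups did not overlap, the mean was 0.474 times that of the injury group, and the log2 fold change was −1.08 ± 0.33 (edgeR adjusted p of 0.330). Grin2d, whose subunit gives slow currents, was at 44.8, 24.3 and 23.7 CPM with injury and at 25.5, 15.2 and 12.1 CPM with AZ876. Injury replicate 1 stood far above the rest, and without it the log2 fold change of −0.82 ± 0.35 became −0.45.

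Grin2a and Grin2b encode the regulatory subunits that set channel kinetics in much of the nervous system. Their log2 fold changes were −0.82 ± 0.47 and −0.84 ± 0.47, and in both genes AZ876 replicate 1 was above injury replicate 3. Grin3a and Grin3b encode subunits that lower calcium permeability and had log2 fold changes of −0.44 ± 0.34 and −0.47 ± 0.25. Grin3b was read from only 31 to 60 counts per library, and its groups did not overlap. The gene Tmem259 on the opposite strand overlaps Grin3b by 2243 bases and had 4895% of its counts, and Kdelr1 overlaps Grin2d by 5607 bases and had 368%. Grin1os, on the opposite strand of Grin1, overlaps it by 7706 bases and had 6.42% of its counts. As the strand setting is unknown, reads of these neighbours cannot be told apart from those of Grin3b, Grin2d and Grin1. The log2 fold change of Tmem259 was −0.09 ± 0.10, that of Kdelr1 0.32 ± 0.12 and that of Grin1os −0.61 ± 0.36.

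Grid1 encodes a delta receptor that binds cerebellins and organises synapses. It was at 30.3, 34.1 and 21.3 CPM with injury and at 28.1, 13.98 and 13.2 CPM with AZ876. AZ876 replicate 1 was above injury replicate 3, so the groups overlapped, with a log2 fold change of −0.64 ± 0.32 (edgeR adjusted p of 0.367).

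All 6 metabotropic receptor genes had lower means with AZ876. Grm4, Grm7 and Grm8 encode presynaptic receptors that restrain transmitter release. Grm4 was at 29.1, 22.7 and 22.0 CPM with injury and at 21.5, 13.5 and 8.74 CPM with AZ876. Its groups did not overlap by a narrow margin, with a log2 fold change of −0.76 ± 0.31 (edgeR adjusted p of 0.333). Grm7 had a log2 fold change of −0.62 ± 0.43 and Grm8 of −0.44 ± 0.70. Grm8 had 8 to 82 counts per library, and its log2 fold change was 0.07 without AZ876 replicate 3, which held the 8 counts. Grm5, a postsynaptic receptor that binds Homer, was at 46.0, 35.7 and 19.2 CPM with injury and at 46.6, 11.3 and 14.1 CPM with AZ876. Its highest value was in an AZ876 library, and the log2 fold change of −0.49 ± 0.55 became −1.41 without that library. Grm2 and Grm3 encode receptors that lower cyclic AMP, the latter in astrocytes too. Their log2 fold changes were −0.70 ± 0.52, on 13 to 64 counts per library, and −0.30 ± 0.21.

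Among the scaffolds, Dlg4 was at 240, 195 and 164 CPM in the injury libraries and at 191, 120 and 107 CPM in the AZ876 libraries. AZ876 replicate 1 lay just below injury replicate 2 and above injury replicate 3, and the log2 fold change was −0.52 ± 0.24 (edgeR adjusted p of 0.347). Dlg2, which encodes a close relative that also binds NMDA receptors, was at 94.6, 76.6 and 52.4 CPM with injury and at 74.3, 32.1 and 29.95 CPM with AZ876. The log2 fold change of Dlg2 was −0.71 ± 0.37, and Dlg3 had −0.21 ± 0.18. Dlg1, which is also expressed widely outside neurons, went the other way, at 95.0, 89.6 and 96.2 CPM with injury and at 106, 103 and 97.7 CPM with AZ876. It was the 1 gene whose AZ876 libraries were all above the injury libraries, with a log2 fold change of 0.13 ± 0.10 (edgeR adjusted p of 0.517). Gria2, Grm5, Dlg1 and Dlg2 were singled out after their values were seen.

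Shank1 was at 187, 129 and 119 CPM with injury and at 138, 71.3 and 57.9 CPM with AZ876. AZ876 replicate 1 was above injury replicates 2 and 3 and the other AZ876 libraries were below all injury libraries, with a log2 fold change of −0.71 ± 0.33 (edgeR adjusted p of 0.350). Shank2 had −0.70 ± 0.38 and Shank3 −0.29 ± 0.20, both with overlap. Homer3 had the highest log2 fold change of the 33 genes, 0.28 ± 0.24 (edgeR adjusted p of 0.570). It was at 18.8, 15.1 and 22.0 CPM with injury and at 15.5, 24.6 and 27.6 CPM with AZ876, with AZ876 replicate 1 the second lowest library. Ddx49 lies on the opposite strand of Homer3, overlaps it by 1496 bases and had 105% of its counts, with a log2 fold change of −0.06 ± 0.15. Homer1 and Homer2 had log2 fold changes of −0.12 ± 0.25 and −0.30 ± 0.33, and that of Homer1 was 0.05 without AZ876 replicate 3. The short activity-induced form of Homer1 cannot be told apart from the long forms in counts per gene.

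**Figure D3:**
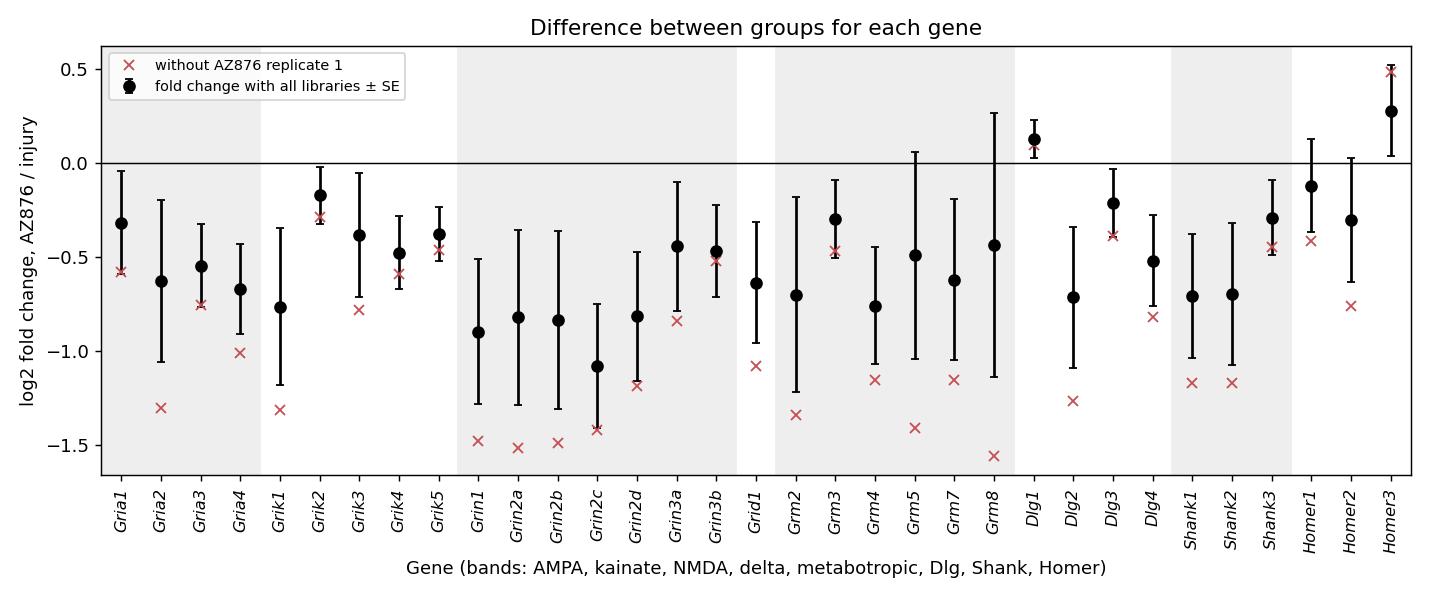
The log2 fold change of AZ876 against injury for each of the 33 genes with its SE (black, 6 libraries) and without AZ876 replicate 1 (red crosses). That library was singled out after the values were seen. The values of 31 genes are below 0, from −1.08 for Grin2c to −0.12 for Homer1, and those of Dlg1 (0.13) and Homer3 (0.28) are above it.

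Whether the make-up of the receptor families differed was asked with 7 ratios of 1 gene to another within a library, which do not depend on library scaling. The log2 ratio of Gria1 to Gria2 was 0.25 ± 0.19 with injury and 0.70 ± 0.47 with AZ876 (SD, n = 3 each; two-sided exact permutation p = 0.3). That of Grin2b to Grin2a was −0.28 ± 0.09 and −0.26 ± 0.04 (exact permutation p = 0.7), and with a difference of 0.02 it was the closest of the 7 between groups. That of Dlg4 to Dlg1 was 1.07 ± 0.29 and 0.40 ± 0.39 (exact permutation p = 0.2). AZ876 replicate 1, at 0.84, was above injury replicate 3, at 0.77, and the other AZ876 libraries were at 0.22 and 0.13. The ratios of Gria4 to Gria2, Grin2d to Grin1, Grm3 to Grm5 and Homer3 to Homer1 differed by 0.04, 0.19, 0.39 and 0.41 on the log2 scale, with exact permutation p of 1.0, 0.5, 0.9 and 0.4. The smallest p that 3 against 3 samples allow is 0.1, and the Benjamini-Hochberg adjusted p over the 7 ratios ran from 0.875 to 1.0. The share of each gene in the level per length of its class was also computed. Of the 32 shares 4 had no overlap between groups, 3 higher and 1 lower with AZ876. In CPM, 10.2% of all genes tested had no overlap on the higher side and 8.64% on the lower. Shares of a class are tied to each other, and the same count of shares over all genes was not made. As a description, with no test, Dlg4 made up 41.0 ± 1.72% of the Dlg level per length with injury and 34.6 ± 3.33% with AZ876. For Dlg4 the nearest libraries of the groups were AZ876 replicate 1 at 38.3% and injury replicate 3 at 39.2%. Grin3a made up 10.6 ± 1.52% and 14.3 ± 0.85% of the NMDA level. Grik2 made up 7.02 ± 0.807% and 8.15 ± 0.467% of the kainate level, and Dlg3 22.4 ± 0.375% and 23.8 ± 0.745% of the Dlg level.

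Markers of neurons moved in the same direction as the receptor genes. All 14 neuron markers had lower means with AZ876, the median log2 fold change was −0.66, and 7 of them were at an unadjusted p under 0.05. edgeR called 0 of them, or 4 without AZ876 replicate 1, and DESeq2 called 1, the neurofilament gene Nefm. Their summed level was 5222 to 6801 CPM in the injury libraries and 2442 to 5034 CPM in the AZ876 libraries. In tissue RNA, fewer neurons and less RNA per neuron cannot be told apart. Divided by this sum, a measure added after the values were seen, 27 of the 33 genes were higher with AZ876 and 6 lower, with a median log2 difference of 0.16. On this scale the median of all genes was 0.84, against 0.01 with the library scaling, and 3 markers, Nefm, Snap25 and Nefl, make up 54.8% of the sum. The 6 genes that were lower also on this scale were Grin1 (−0.18), Grin2a (−0.10), Grin2b (−0.07), Grin2c (−0.29), Grm4 (−0.01) and Grm8 (−0.11). The groups did not overlap for 7 genes on the higher side, Gria1, Grik2, Grik5, Dlg1, Dlg3, Shank3 and Homer1, and for 0 on the lower, where 45.9% and 0.244% of all genes did so.

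Other cell types also differed between the libraries. All 12 microglia and macrophage markers had higher means with AZ876, and they had summed levels of 2488 to 3688 CPM with injury and 3037 to 5871 CPM with AZ876. So had all 8 fibroblast markers, at 732 to 2134 and 2379 to 3452 CPM, and all 8 T cell markers, at 6.93 to 13.5 and 19.4 to 35.1 CPM. Of 7 tested Schwann cell markers 6 were higher, and the sum of all 8 was 1285 to 2119 and 2416 to 2857 CPM. Of 8 endothelial markers 7 were higher, at 317 to 388 and 374 to 441 CPM. Astrocyte markers had 6 of 10 higher, at 12053 to 15996 and 11460 to 17423 CPM. Oligodendrocyte markers had 8 of 10 lower, at 12141 to 12706 and 9560 to 11519 CPM, and 5 of 8 precursor markers were lower, at 708 to 779 and 587 to 618 CPM. edgeR called 0 markers of these lists, while DESeq2 called 3 T cell and 2 Schwann cell markers higher and 1 precursor marker lower. The part of these cell types, and of the neuron markers, in the receptor and scaffold values was not tested.

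**Figure D4:**
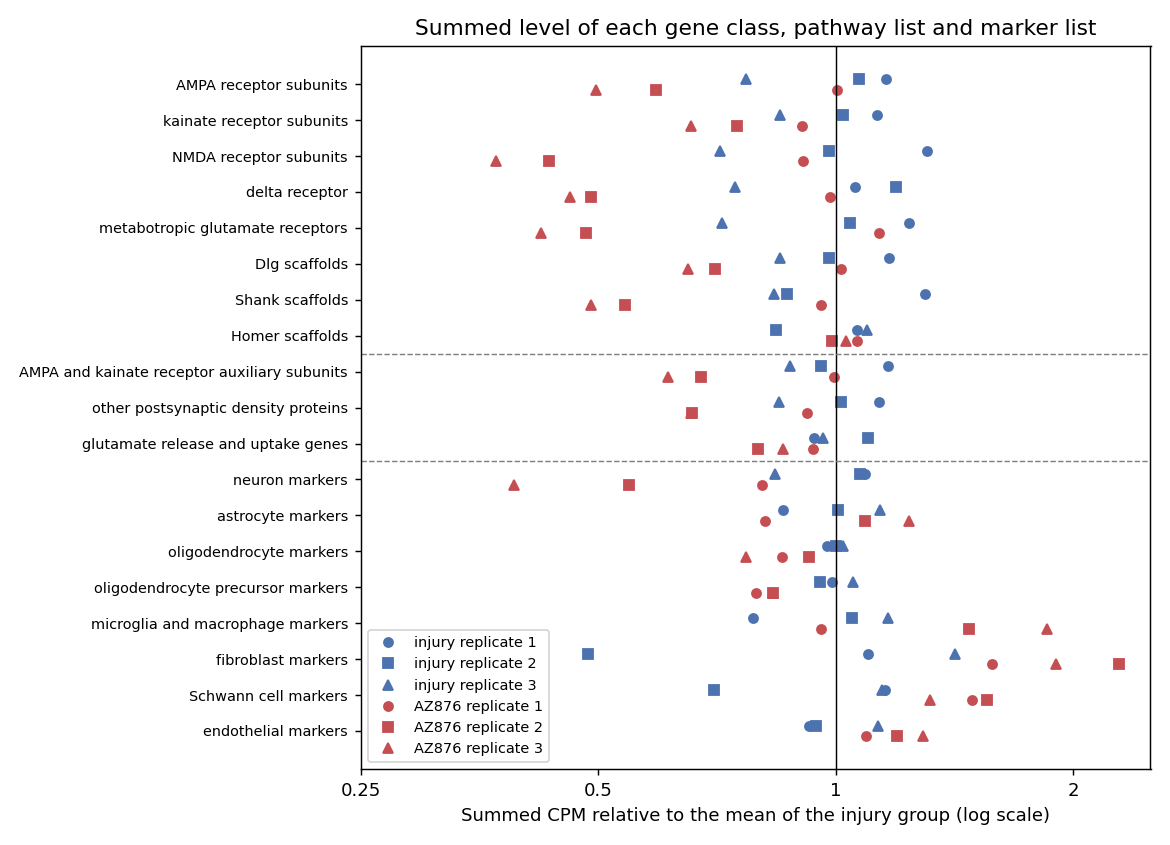
Summed CPM of each receptor and scaffold class, of the pathway lists and of the cell type marker lists other than T cells, in each library, divided by the mean of the injury group (log axis; injury in blue, AZ876 in red). AZ876 replicates 2 and 3 lie lowest for all receptor classes and for the Dlg and Shank scaffolds. Neuron, oligodendrocyte and precursor markers and the glutamate release and uptake genes are lower with AZ876 without overlap between the groups. Fibroblast and Schwann cell markers are higher without overlap.

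Other genes of the glutamate synapse were taken from 3 lists. Of 15 auxiliary subunit genes of AMPA and kainate receptors, 14 had lower means with AZ876, the median log2 fold change was −0.52, and 3 were lower and 0 higher at an unadjusted p under 0.05. Cacng2, which encodes the AMPA receptor chaperone stargazin, averaged 54.3 ± 4.04 CPM (SD, n = 3) with injury and 31.2 ± 13.8 CPM after AZ876, and Cacng7, a relative, at 104 ± 5.13 and 79.7 ± 16.1 CPM. Cnih3, a cornichon gene, was at 3.86 ± 0.876 and 2.33 ± 0.123 CPM, and Cpt1c, which encodes a binding partner of AMPA receptors, at 62.7 ± 7.17 and 55.7 ± 4.13 CPM. Of 25 other genes of the postsynaptic density, 24 had lower means, the median was −0.33, and 6 were lower and 0 higher at an unadjusted p under 0.05. Camk2g, a subunit gene of the calcium and calmodulin dependent kinase, was at 354 ± 8.43 and 263 ± 28.1 CPM, and its log2 fold change was −0.43 ± 0.12 (edgeR adjusted p of 0.330). Iqsec2 and Iqsec1, which encode exchange factors of the Arf family, were at 74.8 ± 3.82 and 59.4 ± 0.216 CPM and at 311 ± 32.7 and 250 ± 8.15 CPM.

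Genes of glutamate release and uptake were mixed, with lower means for 7 of 11, a median log2 fold change of −0.08, and 1 lower and 0 higher at an unadjusted p under 0.05. That gene was Slc1a1, the neuronal glutamate transporter, which averaged 38.1 ± 6.74 CPM with injury and 24.1 ± 8.04 CPM after AZ876. Slc1a2, the main transporter of astrocytes, was at 1656 ± 137 and 1428 ± 109 CPM, and Glul, which encodes glutamine synthetase, at 2177 ± 460 and 1681 ± 178 CPM. edgeR called 0 genes of these 3 lists with all libraries. Without AZ876 replicate 1 it called 2, 3 and 1 of them lower, where 1.64% of all genes were called lower. These were Cacng2 and Neto1 of the first list, and Dlgap3, Camk2b and Grip2 of the second. In the third it was Slc17a6 (edgeR adjusted p of 0.04997) and not Slc1a1 (0.0527).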

How the data were processed

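The data are 1 table of raw read counts per gene, deposited by the authors as whole numbers with 1 column per sample and no normalisation. Per the submitters' processing notes, HISAT2 2.1.0 and fastp 0.23.0 were used. For the counting program, strand setting, build and annotation, nothing is given in the sources used here. Symbols on more than 1 row (148, with identical counts) were kept once. No label ties replicates to separate animals. The p-values therefore reflect only how these samples vary, and that variation may be technical. Pairs of libraries differed by a chi-square of 13.1 to 120 per degree of freedom, so none was a copy.

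Counts were filtered with filterByExpr, scaled by TMM and tested in edgeR 4.0.16 (R 4.3.3; robust quasi-likelihood F-test, 2 groups, 4 residual degrees of freedom, Benjamini-Hochberg over 17599 genes, threshold 0.05), after a check on simulated counts. CPM uses TMM-scaled library sizes. Ratios use counts plus 0.5 and exact permutation over the 20 assignments of labels. Exon lengths are from GENCODE M21, matched by identifier. The table's gene starts equal those of that release for 2.80% of genes, so promoter windows are RefSeq's. The table's positions, whose build is not stated, are used only to find genes that overlap the 33. Those overlaps are of whole gene spans. Alternatives were DESeq2 1.42.0, limma-voom 3.58.1, RLE scaling, no filter, a replicate block and leaving out each library. The genes and lists were chosen with earlier results of these data known. Named are all 33 genes, with values per library for those of smallest p or highest level per length in a class or with an unadjusted p under 0.05, and also for Gria2, Grm5, Dlg1 and Dlg2, which were added after their values were seen, and from each pathway list the 2 genes of smallest p and the 2 of highest level. Genes of the pathway lists that were called without AZ876 replicate 1 are named as well. Replicate numbers were not taken to pair the samples, and whether they do is not known.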

Additional observations from a re-analysis of the deposited data

How the results depend on the processing

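All 33 genes were tested under 11 alternatives. The sign of the log2 fold change was the same in 361 of 363 values, the exceptions being Grm8 (0.070) and Homer1 (0.045) without AZ876 replicate 3. Their leave-one-out ranges were −1.56 to 0.070 and −0.41 to 0.045. Over all genes, the 0 calls of edgeR became 6 with no low-count filter, 178 in DESeq2, and 0 to 363 when 1 library was left out, with 363 without AZ876 replicate 1 and 0 without any other. Of the 33 genes 0 to 4 were then called, and 1 to 24 were lower at an unadjusted p under 0.05. The cause was not tested. Divided by the summed neuron markers, an alternative chosen after seeing the data, 6 genes in place of 31 were lower, because the marker sum itself was lower. The small difference in the ratio of Gria4 to Gria2 changed sign when injury replicate 1 (−0.15), AZ876 replicate 2 (−0.045) or its replicate 3 (−0.098) was left out, and that of Grin2b to Grin2a without injury replicate 3 (−0.014). Leaving out 1 library moved the differences in ratio of Gria1 to Gria2 over 0.30 to 0.72, Gria4 to Gria2 over −0.15 to 0.25, Grin2b to Grin2a over −0.014 to 0.073 and Dlg4 to Dlg1 over −0.90 to −0.54. A pairing of the groups by replicate number is not stated in the labels. Deviations from the group means correlated at 0.39, −0.14 and 0.32 for replicates 1, 2 and 3. For libraries of unlike number they correlated at −0.49 to 0.34. With 3 libraries in each group these values cannot decide whether the samples are paired. As no label states a pairing, none was assumed. With the replicate number as a block, edgeR called 2 genes in all and 0 of the 33, and 22 of the 33 were lower at an unadjusted p under 0.05. The share of all genes at that unadjusted threshold was not counted for this fit or for those without 1 library. Low counts limit Grm2, Grm8 and Grin3b.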
